A study of Mus musculus with 16 samples.

Results

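Contacts between an RNA and DNA on the same chromosome, more than 5 Mb apart, were collected from H3K27me3-RADIP and Input libraries of mESCs. Each line of the deposited tables gives the tags of 1 significant pair, one from RNA and one from DNA. The pairs described here were selected by measured positions, as those with both tags on 1 chromosome (*cis*) and over 5000000 bp between the tag centres, and they were then grouped by RNA name and by the 25-kb bin of the DNA tag. This gave 4602 of the 1305107 pairs in Input, against 19015 of 1415135 in H3K27me3-RADIP. They formed 497 of 64104 RNA–bin combinations in Input, or 0.775%, and 1944 of 73554 in H3K27me3-RADIP, or 2.64%. In Input 53 RNAs and 490 bins were involved, against 99 RNAs and 1777 bins in H3K27me3-RADIP.

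All libraries came from mESCs of the line PGK12.1, grown with leukemia inhibitory factor and fixed with 1% formaldehyde, and no genotype or treatment separated the groups. RADIP ligates an RNA to nearby chromatin DNA inside the nucleus through a bridge adaptor. H3K27me3-RADIP libraries were then pulled down with an antibody to H3K27me3, whereas Input libraries were made from a portion of the same lysate, set aside before the antibody was added. The conditions are thus paired by preparation, but the merged tables do not keep the pairing. The labels list 8 libraries per condition, which the authors merged into 1 table each, so that no replicate error can be computed and no test between the conditions was possible. These libraries are not all biological replicates, since the study describes fewer replicates than libraries, and the labels do not say which belong together. Intervals below are therefore 95% Wilson intervals of counting error only. The reads carried no molecular identifiers, so that copies of a molecule made by amplification could be counted as separate pairs, which the intervals do not cover. These were bulk cells, in which a contact made in fewer cells and a contact made less often per cell cannot be told apart.

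H3K27me3 is the histone mark written by Polycomb repressive complex 2 (PRC2). In embryonic stem cells it covers the silent promoters of many developmental regulators, such as the Hox genes, and Polycomb-bound promoters are known to meet one another in the nucleus across long stretches of a chromosome. Most chromatin-bound RNA is captured close to the gene that it is transcribed from, so that distant contacts form a small part of *cis* contacts.

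The sequences that anchor the results are shown first. Of the developmental promoters reached from over 5 Mb in H3K27me3-RADIP, 6 are given to show the kind of DNA at the target ends: those of *Lmx1b*, *Nkx6-2*, *Hoxa6*, *Hoxb8*, *Sox1* and *Foxi2*. Each is the 250 bases before the RefSeq start on GRCm38.p6, the same build as mm10, written 5′ to 3′ on the strand of the gene, and capitals mark CG dinucleotides. They lie at chr2:33641099-33641348 (minus strand), chr7:139582798-139583047 (minus), chr6:52208673-52208922 (minus), chr11:96281655-96281904 (plus), chr8:12395269-12395518 (plus) and chr7:135410117-135410366 (plus).
Lmx1b: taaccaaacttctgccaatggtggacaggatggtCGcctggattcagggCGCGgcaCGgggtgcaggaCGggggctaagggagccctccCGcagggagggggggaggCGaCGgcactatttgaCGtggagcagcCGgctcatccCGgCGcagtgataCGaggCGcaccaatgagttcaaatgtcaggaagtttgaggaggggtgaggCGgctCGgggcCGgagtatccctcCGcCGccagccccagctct
Nkx6-2: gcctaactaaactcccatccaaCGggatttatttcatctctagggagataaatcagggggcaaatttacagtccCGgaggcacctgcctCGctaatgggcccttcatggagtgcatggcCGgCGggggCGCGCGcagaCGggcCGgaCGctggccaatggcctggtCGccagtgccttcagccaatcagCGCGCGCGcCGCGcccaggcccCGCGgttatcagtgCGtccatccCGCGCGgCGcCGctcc
Hoxa6: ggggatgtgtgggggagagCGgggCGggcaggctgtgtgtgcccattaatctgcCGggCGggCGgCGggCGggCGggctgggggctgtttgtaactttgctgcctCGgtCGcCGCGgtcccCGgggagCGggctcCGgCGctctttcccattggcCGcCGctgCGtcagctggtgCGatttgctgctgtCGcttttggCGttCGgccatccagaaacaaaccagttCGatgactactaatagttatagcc
Hoxb8: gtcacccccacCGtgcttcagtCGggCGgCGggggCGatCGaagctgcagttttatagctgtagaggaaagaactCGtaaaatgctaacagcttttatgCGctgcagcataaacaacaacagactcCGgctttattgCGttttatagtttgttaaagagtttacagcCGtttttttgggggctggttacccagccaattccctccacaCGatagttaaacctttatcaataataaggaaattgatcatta
Sox1: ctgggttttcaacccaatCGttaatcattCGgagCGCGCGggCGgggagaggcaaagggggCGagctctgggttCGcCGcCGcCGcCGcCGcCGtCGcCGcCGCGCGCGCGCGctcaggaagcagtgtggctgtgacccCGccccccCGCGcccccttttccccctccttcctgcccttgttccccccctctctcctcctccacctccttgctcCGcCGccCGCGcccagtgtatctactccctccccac
Foxi2: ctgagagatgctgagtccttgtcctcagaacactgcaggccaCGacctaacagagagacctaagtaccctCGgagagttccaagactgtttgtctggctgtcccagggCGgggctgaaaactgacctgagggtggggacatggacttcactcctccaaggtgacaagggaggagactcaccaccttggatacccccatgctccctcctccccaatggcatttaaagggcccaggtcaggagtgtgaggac

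These windows held 19, 26, 24, 12, 29 and 3 CG, in the order printed. Over 32619 RefSeq promoters of the same length the median was 6, and over 327 promoters of the developmental list it was 14. As many CG as in the *Sox1* window were present in 6.82% of all promoters, and as many as in the *Foxi2* window in 71.2%. Promoters of the developmental list held a median of 14 CG where their gene was a distant target in H3K27me3-RADIP (51 promoters of 40 genes). The median was also 14 where it was not (276 promoters of 223 genes). Not all of the 375 genes of the list had a promoter in this comparison.

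At the RNA ends, 2 small RNAs gave many of their distant pairs from a single tag position, and these tags are printed because they were the most frequent ones of both RNAs. Each line is RefSeq sequence of GRCm38.p6, plus strand, 5′ to 3′, with the 25 bases of the RNA tag in capitals and 20 bases on either side. The *Snord118* tag lies at chr11:69073523-69073547 and the *Gm22973* tag at chr12:59040460-59040484.
Snord118: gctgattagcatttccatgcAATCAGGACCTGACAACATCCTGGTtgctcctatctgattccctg
Gm22973: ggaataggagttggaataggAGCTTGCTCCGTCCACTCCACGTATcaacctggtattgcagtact

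Of the distant pairs of *Snord118*, this tag carried 27 of 51 in Input, against 55 of 117 in H3K27me3-RADIP. The *Gm22973* tag carried 60 of 66 pairs in Input, against 43 of 48 in H3K27me3-RADIP.

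The labelled cell type was checked on the RNAs in the tables. Of 17 mESC marker genes, 9 were listed as RNAs in Input, with 4436 pairs in all, and 10 in H3K27me3-RADIP, with 4708 pairs. *Pou5f1* and *Nanog*, which define pluripotent cells, were listed at 0 in both tables. Marker lists of other cell types summed to 38 and 56 pairs for endoderm, 0 and 8 for mesoderm, 11 and 33 for neural cells, and 7 and 7 for fibroblasts, in Input and H3K27me3-RADIP. The tables hold significant pairs only, so that 0 pairs is not a level of expression. The part of these cells in the distant pairs was not tested.

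Distant *cis* pairs made up a larger share of the H3K27me3-RADIP table than of the Input table. They were 0.353% (0.343–0.363) of Input, against 1.34% (1.32–1.36) of H3K27me3-RADIP, a difference of 0.991 percentage points and a ratio of 3.81. The difference was 0.305 points without the 10 RNAs with the most distant pairs in each library and 0.559 points with a limit of 10 Mb. The smallest share this depth could show, 3 pairs, was 0.000230% of Input, against 0.000212% of H3K27me3-RADIP. At 1 to 5 Mb the same tables held 55406 and 84279 pairs. The values that selected these pairs are the distances themselves, and the 5-Mb limit fell within a continuous range. Just outside it in H3K27me3-RADIP stood *Mcph1* at 5.00064 Mb with 7 pairs, *Fgfr2* at 5.00071 Mb with 2 and *Faf1* at 5.00094 Mb with 7. Just inside stood *Wwox* at 4.99966 and 4.99898 Mb, with 2 and 14 pairs, and *Tns3* at 4.9981 Mb with 6. In Input the nearest outside were *Magi1* at 5.00096 Mb with 1 pair, *Wwox* at 5.00352 Mb with 10 and *Fgfr2* at 5.004 Mb with 4. The nearest inside were *Fgfr2* at 4.99729 Mb with 7 pairs, *Galnt2l* at 4.99654 Mb with 5 and *Wwox* at 4.99555 Mb with 12. The bin of a combination could straddle the limit, as it did in 64 combinations in Input and 164 in H3K27me3-RADIP.

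Most distant combinations were thin. Counting all pairs of the bin, a combination held between 8 and 37 pairs in Input and between 8 and 42 in H3K27me3-RADIP, with a median of 10 in both, against a median of 13 over all combinations of either table. Combinations of 8 to 10 pairs were 72.2% of those in Input, against 65.3% in H3K27me3-RADIP. A q-value above 0.01 was found for 62.0% and 49.6% of them, with the authors' limit at 0.1. Pairs that repeated both tag positions of another pair were 10.7% and 12.6% of the distant pairs, against 7.82% and 10.5% at 1 to 5 Mb. RNA tags that matched more than 1 place in the genome were 1.24% and 1.55% of the distant pairs, against 1.86% and 2.07% at 1 to 5 Mb. For *Snord118* they were 5 of 51 distant pairs, or 9.80%, compared with 11 of 117, or 9.40%. Such DNA tags were 0 of 4602 and 2 of 19015.

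The distance between the tags had a median of 10.6 Mb in Input (quartiles 6.66 and 16.9) and 11 Mb in H3K27me3-RADIP (quartiles 6.80 and 19.1). Over 20 Mb lay 775 pairs of 21 RNAs in Input, or 16.8% of the distant pairs, and 4306 pairs of 49 RNAs in H3K27me3-RADIP, or 22.6%. The number of pairs in H3K27me3-RADIP over that in Input was 3.90 at 5 to 6 Mb, 3.84 at 6 to 8 Mb, 4.15 at 8 to 10 Mb, 3.70 at 10 to 15 Mb and 3.85 at 15 to 20 Mb. It was 6.20 at 20 to 30 Mb and 6.08 at 30 to 50 Mb. At 50 to 100 Mb it was 2.15, and there the small RNAs *Snord118* and *Gm22973* were the 2 RNAs of all 117 Input pairs.

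**Figure D1:**
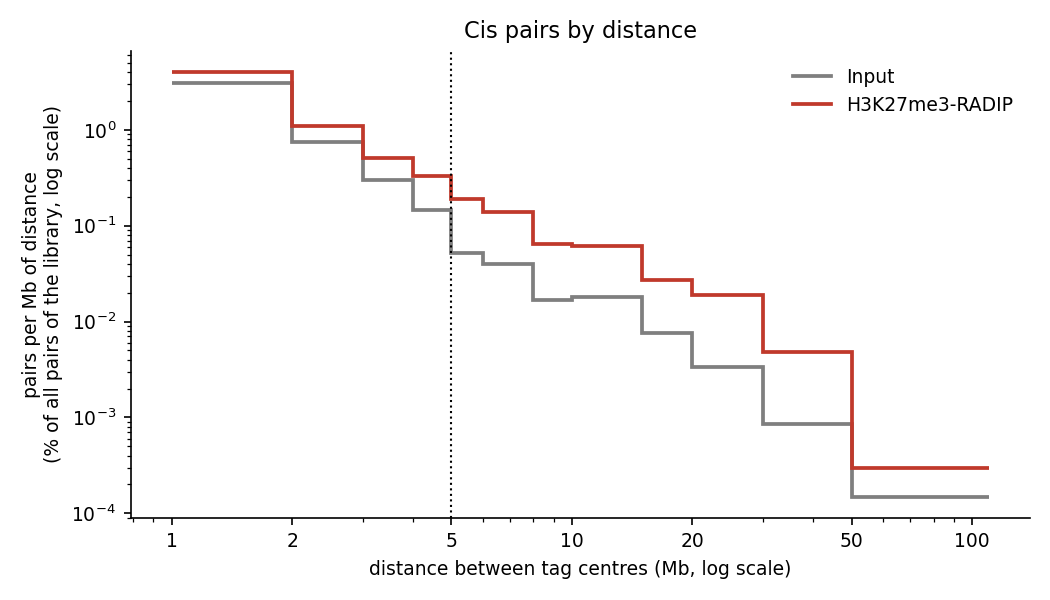
*Cis* pairs by distance between tag centres (x axis, Mb, log scale), as pairs per Mb in percent of all pairs of the library (y axis, log scale), with 1 line per merged library. H3K27me3-RADIP lay above Input in every class, at 0.188% against 0.0523% per Mb at 5 to 6 Mb and at 0.0191% against 0.00333% at 20 to 30 Mb.

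A few RNAs, most of them from long genes, supplied most of these pairs. *Wwox*, which encodes an oxidoreductase and spans a common fragile site, had 969 distant pairs in 100 bins of the Input table, compared with 2808 pairs in 255 bins of the H3K27me3-RADIP table. Those were 10.6% (9.94–11.2) and 19.6% (18.9–20.2) of its *cis* pairs. *Tenm4*, a teneurin of the cell surface, had 680 pairs in 67 bins and 2323 pairs in 219 bins, or 7.84% (7.29–8.42) and 20.1% (19.4–20.8) of its *cis* pairs. *Mcph1*, a regulator of chromosome condensation, had 459 pairs in 45 bins and 1394 pairs in 126 bins, or 8.21% and 19.3%. For each of these 3 RNAs the H3K27me3-RADIP interval lay above that of Input.

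*Fgfr2*, a receptor of fibroblast growth factors, reached 99 bins with 818 pairs in Input, compared with 247 bins with 2372 pairs in H3K27me3-RADIP, or 7.56% (7.08–8.07) and 15.8% (15.2–16.4) of its *cis* pairs. The annotated *Fgfr2* model is 2961 kb long and holds 13 other protein-coding genes on its strand, but the middle 50% of its distant tags spanned 72.2 kb. *Galnt2l* had a model of 4435 kb with 37 such genes inside, and its 56 and 168 distant pairs cannot be assigned to 1 gene. Its middle tags spanned 3512 kb.

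*Kcnq1ot1*, the antisense lncRNA of the imprinted *Kcnq1* domain, reached 23 bins with 243 pairs in Input, compared with 192 bins with 1967 pairs in H3K27me3-RADIP. Its distant share of *cis* pairs was 4.54% (4.02–5.13) and 17.7% (17.0–18.4). All of its distant pairs went to lower coordinates, where the chromosome offers 143 Mb, whereas 2.14 Mb remain on the other side, less than the limit. All its tags were exonic. Its pairs within 5 Mb were also more numerous in H3K27me3-RADIP, at 1.66 times Input after scaling to the size of the tables.

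The next RNAs came from other chromosomes. *Msi2*, an RNA-binding protein gene, had 124 distant pairs in Input and 1107 in H3K27me3-RADIP, or 2.30% and 15.2% of its *cis* pairs. *Smyd3*, a lysine methyltransferase gene, had 109 and 604 pairs, or 2.63% and 12.5%. *Magi1*, a scaffold of cell junctions, had 46 and 525 pairs, or 0.802% and 8.08%. *Ptprg*, a receptor phosphatase, had 54 and 456 pairs, every one at higher coordinates than its gene. *Jarid2*, a PRC2 cofactor, had 125 and 414 pairs, or 1.77% and 5.21% of its *cis* pairs. *Ext1*, a glycosyltransferase of heparan sulfate, had 45 and 331 pairs, and *Kat6b*, a histone acetyltransferase, had 60 and 322. *Etl4* had 0 distant pairs in Input among 3803 *cis* pairs and 146 among 3833 in H3K27me3-RADIP, or 3.81% (3.25–4.46).

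**Figure D2:**
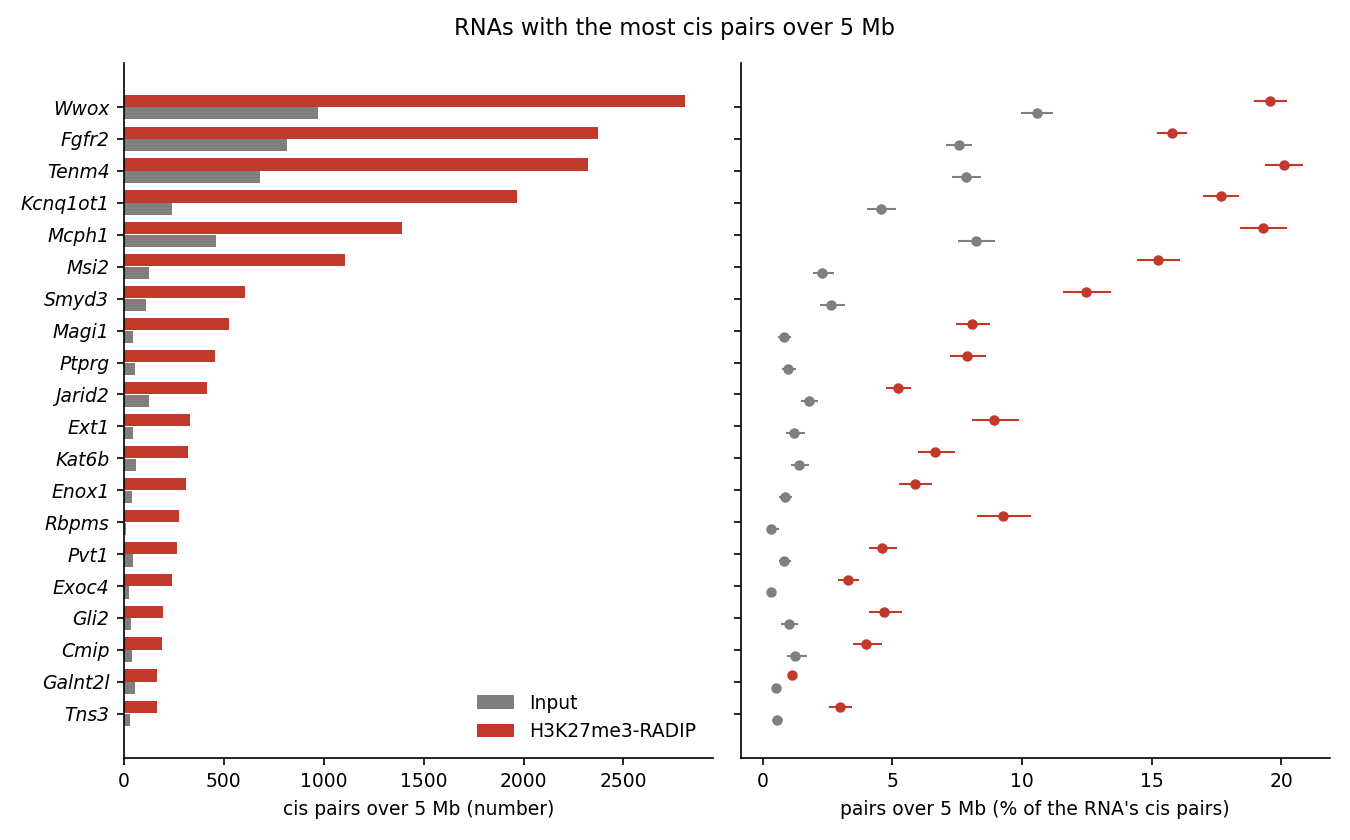
Left, number of *cis* pairs over 5 Mb for the 20 RNAs with the most in H3K27me3-RADIP; right, the same pairs in percent of all *cis* pairs of the RNA, with 95% Wilson intervals of counting error as lines. Grey is Input and red is H3K27me3-RADIP, in which the percentages ran from 1.11% for *Galnt2l* to 20.1% for *Tenm4*; since the RNAs were picked by their pairs in H3K27me3-RADIP, the direction of the difference is favoured by the choice.

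The 4 RNAs with the most distant pairs held 63.6% of them in Input (*Wwox*, *Fgfr2*, *Tenm4* and *Mcph1*) and 49.8% in H3K27me3-RADIP (*Wwox*, *Fgfr2*, *Tenm4* and *Kcnq1ot1*), and the first 12 held 81.8% and 76.9%. By contrast, 17 of 53 RNAs in Input and 31 of 99 in H3K27me3-RADIP reached only 1 distant bin. At least 10 bins were reached by 9 and 29 RNAs. Protein-coding RNAs (pcRNAs) were 48 of 53 in Input, against 93 of 99 in H3K27me3-RADIP. The median gene length was 277 kb and 297 kb, against 102 kb and 104 kb over RNAs with at least 100 pairs in the same tables.

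Of 53 RNAs with distant pairs in Input, 48 had them in H3K27me3-RADIP too, which is 90.6% of the Input list and 48.5% of the H3K27me3-RADIP list. *Elovl6*, *Erc1*, *Jmjd1c*, *Rai14* and *Ralgps1* had distant pairs in Input only. The distant share of *cis* pairs was higher in H3K27me3-RADIP for 46 of the 48 shared RNAs. The other two were *Snord118*, at 100% in both, and *Gm22973*, at 100% and 84.2%. The median ratio of the shares was 3.32 and the highest was 27.8, for the RNA-binding protein gene *Rbpms*, with 9 distant pairs in Input, against 277 in H3K27me3-RADIP. The libraries differed less in the pairs that were not distant. Of 98 RNAs with distant pairs that had at least 10 other pairs in both tables, 3 (*Kcnq1ot1*, *Malat1* and *Snord118*) were at least 1.5-fold higher in H3K27me3-RADIP, or 3.06%, beside a background of 12.5% over 7259 RNAs. A level at least 1.5-fold lower was found for 4 (*Diaph2*, *Diaph3*, *Gm22973* and *Pola1*), beside a background of 20.9%. The background took in RNAs with as few as 10 pairs, and the part of pair number in these shares was not tested. The median fold of the other pairs was 1.00 for these 98 RNAs and 0.946 over all 7259.

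Overlap was lower for the combinations than for the RNAs. The tables shared 189 distant combinations of 20 RNAs, 38% of those in Input and 9.72% of those in H3K27me3-RADIP, and 212 bins, 43.3% and 11.9%. In the shared combinations the median number of distant pairs was 10 in Input and 11 in H3K27me3-RADIP, with more pairs in H3K27me3-RADIP in 112, equal numbers in 22 and fewer in 55. Combinations listed in 1 table only had a median of 9 distant pairs in either table.

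Introns held 89.7% (88.8–90.5) of the distant RNA tags in Input and 86.1% (85.6–86.6) in H3K27me3-RADIP, against 94.0% and 93.2% at 1 to 5 Mb. The lncRNA class held 6.48% and 12.1% of the distant tags, against 5.43% and 5.82% at 1 to 5 Mb. Without *Kcnq1ot1* its distant share was 1.26% and 2.01%, below the 3.20% and 2.89% at 1 to 5 Mb, so that the higher distant share of lncRNA tags rested on this 1 RNA. Over all RNAs listed, distant pairs were found for 0.521% in Input, compared with 0.929% in H3K27me3-RADIP. Of 14 nuclear lncRNAs in a fixed list, *Kcnq1ot1*, *Malat1* and *Pvt1* had distant pairs in both tables. *Pvt1*, the lncRNA next to *Myc*, had 46 and 267. Among 12 PRC2 genes only *Jarid2* had distant pairs, and among 19 PRC1 genes none had, in either table, numbers too small to set against the share over all RNAs. Of the mESC markers, *Esrrb* had distant pairs in both tables and *Tet1* in H3K27me3-RADIP.

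Chromosomes 7 and 8 held most of the distant pairs, 73.2% in Input and 63.1% in H3K27me3-RADIP. On chromosome 7 these were 1792 pairs of 5 RNAs, 2.07% of its *cis* pairs, in Input and 6919 pairs of 7 RNAs, 6.36%, in H3K27me3-RADIP. Chromosome 8 had 1577 pairs, 1.34%, and 5084 pairs, 3.58%. On 20 of 20 chromosomes H3K27me3-RADIP had the higher percentage. Chromosomes 4, 9, 16, 17 and 18 had no distant pair in Input and between 6 and 74 in H3K27me3-RADIP.

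The RNA with the most distant pairs in H3K27me3-RADIP held over 50% of them on 17 of 20 chromosomes; the exceptions were chromosomes 7 (*Fgfr2*, 34.3%), 12 (*Rad51b*, 42.1%) and 14 (*Ptprg*, 40.8%). These leading RNAs were *Smyd3* on chromosome 1, *Etl4* on 2, *Jade1* on 3, *Faf1* on 4, *Dpp6* on 5, *Magi1* on 6, *Wwox* on 8, *Ncam1* on 9, *Tet1* on 10, *Msi2* on 11, *Jarid2* on 13, *Ext1* on 15, *Lpp* on 16, *Fbxl17* on 17, *Fhod3* on 18, *Malat1* on 19 and *Gpc3* on X. In Input other RNAs led on chromosome 2 (*Camk1d*, 17 pairs), 5 (*Rbpj*, 16), 6 (*Snd1*, 48), 10 (*Jmjd1c*, 8), 12 (*Gm22973*, 66), 14 (*Kat6b*, 60) and 15 (*Pvt1*, 46).

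**Figure D3:**
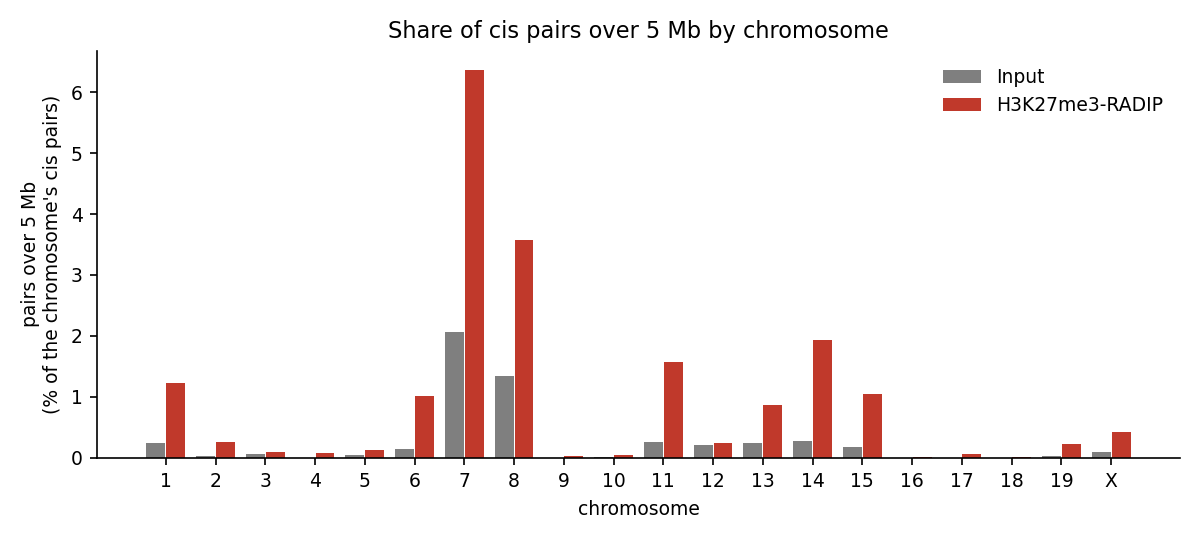
*Cis* pairs over 5 Mb in percent of all *cis* pairs of the chromosome (y axis) for 20 chromosomes (x axis), Input in grey and H3K27me3-RADIP in red. Chromosome 7 was highest in both, at 2.07% and 6.36%, followed by chromosome 8 at 1.34% and 3.58%.

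The target bins of all RNAs of a library were joined into regions where they lay at most 100 kb apart. Input had 303 target regions and H3K27me3-RADIP had 690, of which 227 and 442 were a single bin. The largest regions are described here. The longest run of bins was chr7:137475000-139949999, with 72 bins and 939 pairs in H3K27me3-RADIP (*Fgfr2* 629, *Kcnq1ot1* 273) and 301 pairs in Input (*Fgfr2* 244, *Kcnq1ot1* 48). It holds the TSSs of *Nkx6-2*, *Utf1*, *Inpp5a* and *Jakmip3*, among others. Next to it, chr7:135050000-137374999 had 665 pairs in H3K27me3-RADIP, of which 602 were of *Kcnq1ot1*, and 134 in Input, of which 106 were. This region contains *Ebf3*, *Foxi2*, *Mgmt* and *Ptpre*. The order of these RNAs within a region depended on the 5-Mb limit. With *cis* pairs at all distances, the former region had 734 pairs of *Fgfr2* and 848 of *Kcnq1ot1* in H3K27me3-RADIP, and the latter had 1033 and 602. In Input the values were 275 and 210 in the former and 492 and 106 in the latter, so that the order turned in both regions in H3K27me3-RADIP and in the latter only in Input.

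On chromosome 8 the collagen genes *Col4a1* and *Col4a2* lie in chr8:10050000-11474999, which had 520 pairs in H3K27me3-RADIP and 131 in Input, with *Mcph1* giving 475 and 131. A neighbouring region with *Sox1*, chr8:11700000-12599999, had 303 and 107 pairs, 285 and 107 of them from *Mcph1*. *Wwox* gave 344 of 407 pairs in H3K27me3-RADIP and 62 of 65 in Input at chr8:125725000-126924999. On chromosome 11, *Msi2* gave 413 of 446 and 86 of 86 pairs at chr11:94200000-95399999, a gene-rich stretch with *Col1a1*, *Cacna1g* and *Dlx4*. Regions without any Input pair also occurred, such as chr7:111325000-111999999 around *Galnt18*, with 206 pairs of *Kcnq1ot1*, *Tenm4* and *Fgfr2* in H3K27me3-RADIP.

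**Figure D4:**
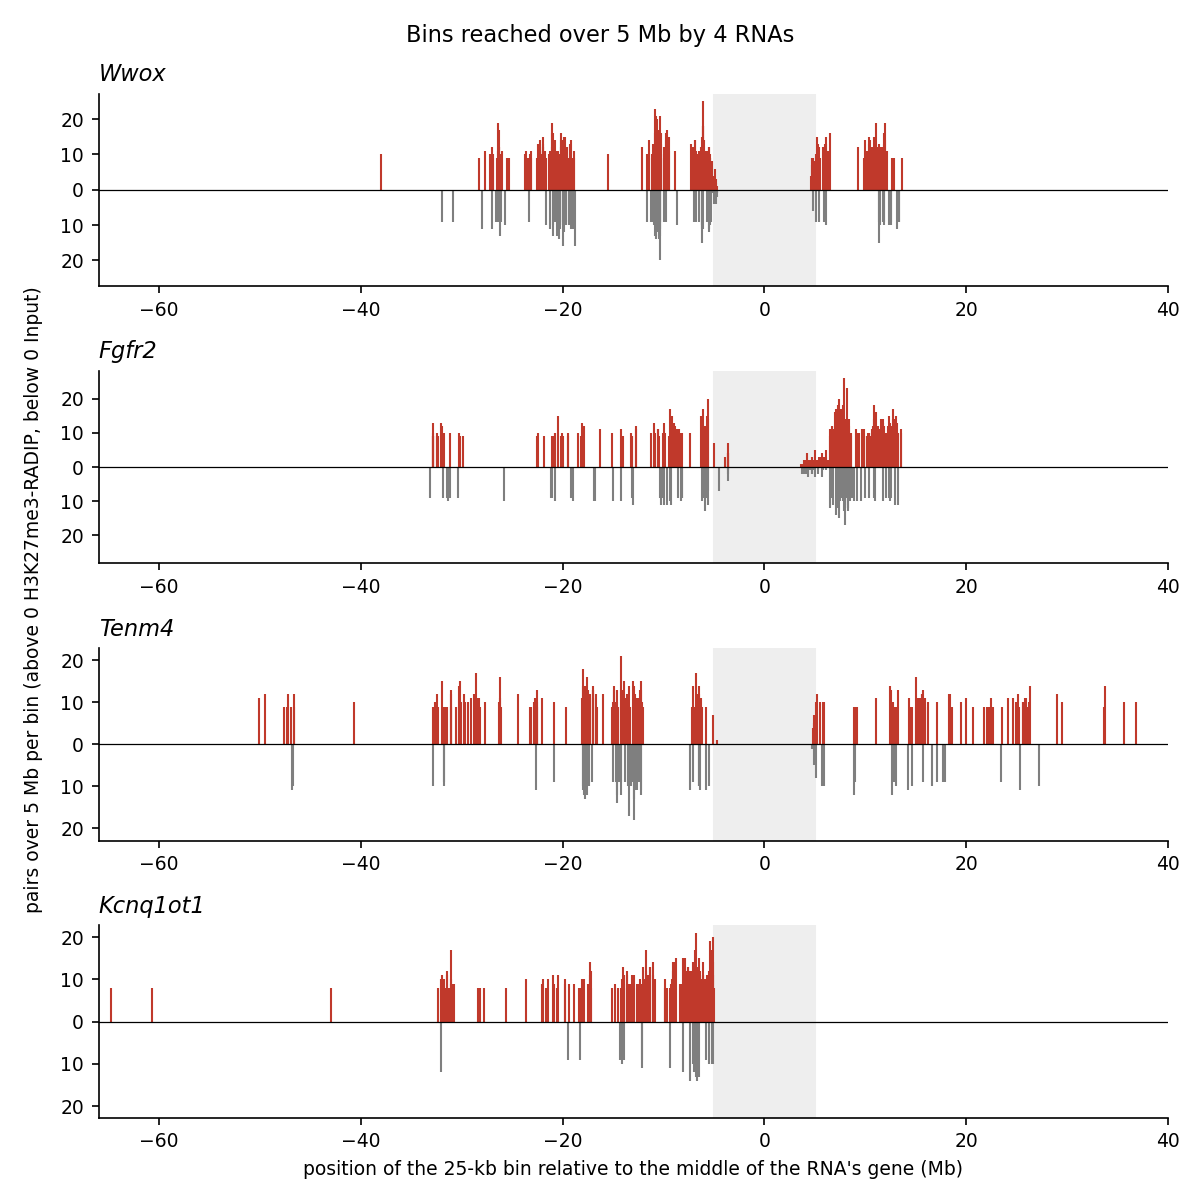
Distant pairs per 25-kb bin (y axis) by position of the bin relative to the middle of the RNA's gene model (x axis, Mb) for *Wwox*, *Fgfr2*, *Tenm4* and *Kcnq1ot1*, with H3K27me3-RADIP upwards in red, Input downwards in grey and 5 Mb on either side shaded. Pairs fell into clusters separated by gaps, and *Kcnq1ot1* had 192 bins in H3K27me3-RADIP and 23 in Input, all on the lower side. Distances were taken from the tags, not the model, so that bins of *Fgfr2*, with its 2961-kb model, enter the shaded part.

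The combination with the most distant pairs was the same in both tables: *Snord118*, the U8 snoRNA that acts in ribosomal RNA processing, with chr11:3150000-3174999 inside *Sfi1*, at 65.9 Mb. It had 37 pairs in Input, against 42 in H3K27me3-RADIP. The next in H3K27me3-RADIP was *Msi2* with the bin of the *Col1a1* TSS, chr11:94925000-94949999, at 6.42 Mb, with 34 pairs and none listed in Input. *Fgfr2* had 26 pairs with the *Nkx6-2* bin against 13 in Input, and 23 with the *Adgra1* bin against 9. *Wwox* had 25 pairs inside *Zfhx3* at chr8:108775000-108799999 and 23 at chr8:104025000-104049999, with none listed in Input. The others were *Snord118* with *Taco1* (23 pairs), *Msi2* inside *Cacna1g* (22), *Tns3* with the *Sfi1* bin (22, against 10 in Input) and *Kcnq1ot1* at chr7:136475000-136499999 (21). Of these 10 combinations, 6 were not listed in Input.

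In Input the order differed after *Snord118*. *Wwox* had 20 pairs overlapping *Car7* at chr8:104550000-104574999, and *Tenm4* had 18 pairs with the *Stard5* bin and 17 at chr7:83100000-83124999, none of which H3K27me3-RADIP listed. *Fgfr2* had 17 pairs with the *Cfap46* bin and 15 inside *Jakmip3*, where H3K27me3-RADIP had 14 and 20. *Wwox* had 16 pairs with the *Adgrg1* bin and 15 inside *Slc35f3*, where H3K27me3-RADIP had 10 and 13. It also had 16 at chr8:96100000-96124999 and 15 inside *Zfhx3* at chr8:108750000-108774999, next to the bin with 25 pairs in H3K27me3-RADIP, with none listed there in the other table.

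The longest contacts were few. In H3K27me3-RADIP the RNA of *Dst*, a cytoskeletal linker gene, had 9 pairs with the *Fmod* bin at 99.9 Mb. *Msi2* had 11 pairs with the *Sfi1* bin at 85.4 Mb, and *Exoc4*, which encodes an exocyst subunit, had 11 with the bin of *Ret*, a receptor tyrosine kinase, at 84.8 Mb. None of the 3 was listed in Input. There the longest were *Snord118* inside *Sfi1* at 65.9 Mb, in 2 bins with 37 and 14 pairs, and *Gm22973* with *Eif5* at 52.5 Mb, *Dync1h1* at 51.6 Mb and chr12:109725000-109749999 at 50.7 Mb, with 13, 12 and 9 pairs.

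Small and abundant nuclear RNAs differed from the long pcRNAs in their other contacts. *Snord118* had no *cis* pair within 5 Mb in either table, and its *trans* pairs were 169 in Input, against 569 in H3K27me3-RADIP. *Gm22973*, annotated as an snRNA, had 66 distant *cis* pairs, none within 5 Mb and 2940 *trans* pairs in Input. In H3K27me3-RADIP it had 48 distant pairs, 9 within 5 Mb and 1765 *trans* pairs, so that its distant share of *cis* pairs was lower there, at 84.2% (72.6–91.5) against 100% (94.5–100). *Malat1*, the lncRNA of nuclear speckles, had 9 distant pairs in 1 bin in Input and 75 in 8 bins in H3K27me3-RADIP, or 3.05% (1.61–5.70) and 14.3% (11.6–17.6) of its *cis* pairs. Its 8 bins in H3K27me3-RADIP lay 26 to 54.9 Mb away, and the 1 bin in Input, inside *Tle4*, lay at 8.64 Mb and was not among them.

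Distant bins were shared by several RNAs more often in H3K27me3-RADIP. At least 2 RNAs reached 6 of 490 bins in Input, or 1.22%, and 151 of 1777 in H3K27me3-RADIP, or 8.5%. Of the latter, 139 had 2 RNAs, 9 had 3, 2 had 4 and 1 had 5. The RNAs of a shared bin came from tags over 1 Mb apart by their medians, the nearest being *Dock1* and *Fgfr2* at 1.84 Mb. RNAs under 5 Mb apart shared 1 of the bins in Input, compared with 18 in H3K27me3-RADIP. *Cmip* and *Wwox*, 2.51 Mb apart, had 9 of these. When each combination had to lie wholly beyond 5 Mb, an alternative chosen after seeing the data, 3 such bins were left in Input and 100 in H3K27me3-RADIP. Without the 10 leading RNAs of each library there were 2 and 22. Chromosome 7 held 72 of the 151 bins and chromosome 8 held 44. A library with more distant combinations has more chances to share a bin, and this was not tested.

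The bin with the most RNAs was again chr11:3150000-3174999. In H3K27me3-RADIP it had *Snord118* (42 pairs), *Tns3* (22), *Snord49a* (12), *Msi2* (11) and *Spred2* (9), and in Input *Snord118* (37), *Tns3* (10) and *Cobl* (8). Those 96 distant pairs were part of 716 pairs of 35 RNAs in this bin in H3K27me3-RADIP, of which 396 were *trans* pairs of 28 RNAs, and the 55 in Input were part of 402 pairs of 13 RNAs. The bin thus also had many contacts from other chromosomes. None of the other 9 most shared bins in H3K27me3-RADIP had a *trans* pair.

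On chromosome 7, *Fgfr2* and *Kcnq1ot1*, whose genes lie 10.2 Mb apart, shared 45 bins in H3K27me3-RADIP and 3 in Input. For *Fgfr2*, 34 of the 45 bins straddled the 5-Mb limit, with a median of 2 of its pairs beyond it (range 1 to 20), and 11 and 0 bins were left when each combination had to lie wholly beyond the limit. *Fgfr2* and *Tenm4*, 36.6 Mb apart, shared 19 bins in H3K27me3-RADIP, of which 17 were left, and *Kcnq1ot1* and *Tenm4*, 46.8 Mb apart, shared 9, of which 9 were left. All 3 met with *Dock1* at chr7:112200000-112224999, with 9 pairs each of *Dock1*, *Fgfr2* and *Kcnq1ot1* and 12 of *Tenm4*. They also met at chr7:111150000-111174999, chr7:126025000-126049999, chr7:121825000-121849999 and chr7:122775000-122799999, with 29 to 32 pairs per bin. *Fgfr2* and *Tenm4* met *Tead1* at chr7:122500000-122524999, and *Fgfr2* and *Kcnq1ot1* met *Plekha7* at the *Zkscan2* bin. On chromosome 8, *Mcph1* and *Rbpms* shared 11 bins, 35.5% of those of *Rbpms*.

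On chromosome 1, 2 neighbouring bins drew several RNAs. The bin chr1:74875000-74899999, with the TSSs of *Fev*, a transcription factor of serotonergic neurons, and *Cryba2*, a lens crystallin, was reached by *Adam23* (11 pairs), *Agap1* (8), *Dst* (8) and *Hdac4* (8). The bin chr1:74775000-74799999, with the TSS of the ligand gene *Wnt10a*, was reached by *Adam23* (11), *Agap1* (9) and *Gli2* (8). *Gli2*, a transcription factor of Hedgehog signalling, lay 44.2 Mb from it. Input listed no distant pair in the *Wnt10a* bin, nor any other pair there.

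In Input the 6 shared bins were the *Sfi1* bin, the *Slc45a4* bin with *Ext1* (9 pairs) and *Pvt1* (9), the *Tnrc6a* bin with *Fgfr2* (9) and *Plekha7* (8), and 3 bins on chromosome 7 at which *Kcnq1ot1* had 10 to 14 pairs and *Fgfr2* had 1. Some bins lay inside the gene of another RNA with distant pairs in the same table. This applied to 15 combinations in Input, or 3.02%, and 115 in H3K27me3-RADIP, or 5.92%. Fewer genes qualified in Input by this definition, and with the genes of RNAs that had distant pairs in either table, a choice made after seeing the data, the values were 25, or 5.03% (3.43–7.32), and 115, or 5.92% (4.95–7.05). *Kcnq1ot1* reached 28 bins inside the long *Fgfr2* model in H3K27me3-RADIP and 2 in Input, and *Wwox* reached 22 inside *Zfhx3*, against 7 in Input, where *Zfhx3* RNA had no distant pair. Contacts in both directions were found for *Wwox* and *Pard3* in Input and for that pair and *Fgfr2* with *Mgmt* in H3K27me3-RADIP.

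Distant bins held TSSs of protein-coding genes more often than nearer bins of the same RNAs. In H3K27me3-RADIP these were 31.1% of the distant bins (29.0–33.3), 21.8% (20.7–23.0) of the bins that the same RNAs reached at 1 to 5 Mb, and 24.2% (23.8–24.6) of all bins with *cis* pairs. In Input they were 27.1% (23.4–31.2), 20.5% (19.1–21.9) and 23.9% (23.5–24.3). The mean GC content of the distant bins was 46.0% in Input and 47.0% in H3K27me3-RADIP, against 44.5% and 45.1% at 1 to 5 Mb. The distant and nearer bins of an RNA are neighbours on the same chromosome and not independent samples, and the intervals do not cover this.

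*Kcnq1ot1* was an exception. A protein-coding TSS lay in 9.90% (6.43–14.9) of its distant bins in H3K27me3-RADIP and in 39.3% (31.6–47.6) of its bins at 1 to 5 Mb, whereas *Msi2* had 50.9% (41.6–60.3) and 29.2% (19.9–40.5). For *Wwox* the values were 30.2% and 17.2%, for *Fgfr2* 27.9% and 15.6%, for *Mcph1* 23.8% and 10.5%, and for *Kat6b* 50% and 15.5%. *Tenm4*, at 21% and 22.5%, and *Smyd3*, at 33.3% and 31.3%, differed by less than the width of their intervals. Intervals also overlapped for *Magi1* (27.1% and 19.0%), *Jarid2* (25% and 19.1%), *Ptprg* (29.4% and 13.0%) and *Ext1* (38.5% and 18.6%).

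Promoters of developmental regulators, a list of 375 protein-coding genes of transcription factor and signalling families, were found among the distant bins of H3K27me3-RADIP. They lay in 51 of 1777 bins, or 2.87% (2.19–3.75), against 0.831% (0.615–1.12) of the bins of the same RNAs at 1 to 5 Mb, 0.676% (0.603–0.757) of all bins with *cis* pairs and 0.341% of all bins of the genome. In Input they lay in 4 of 490 distant bins, or 0.816% (0.318–2.08), against 0.636% (0.416–0.970) at 1 to 5 Mb. The Input interval of the distant bins included the value at 1 to 5 Mb. Without the 10 leading RNAs of each library the distant shares were 4.83% in H3K27me3-RADIP and 0% in Input. Among the bins that H3K27me3-RADIP linked to RNAs in *trans*, the share was 4.75% (3.06–7.30).

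**Figure D5:**
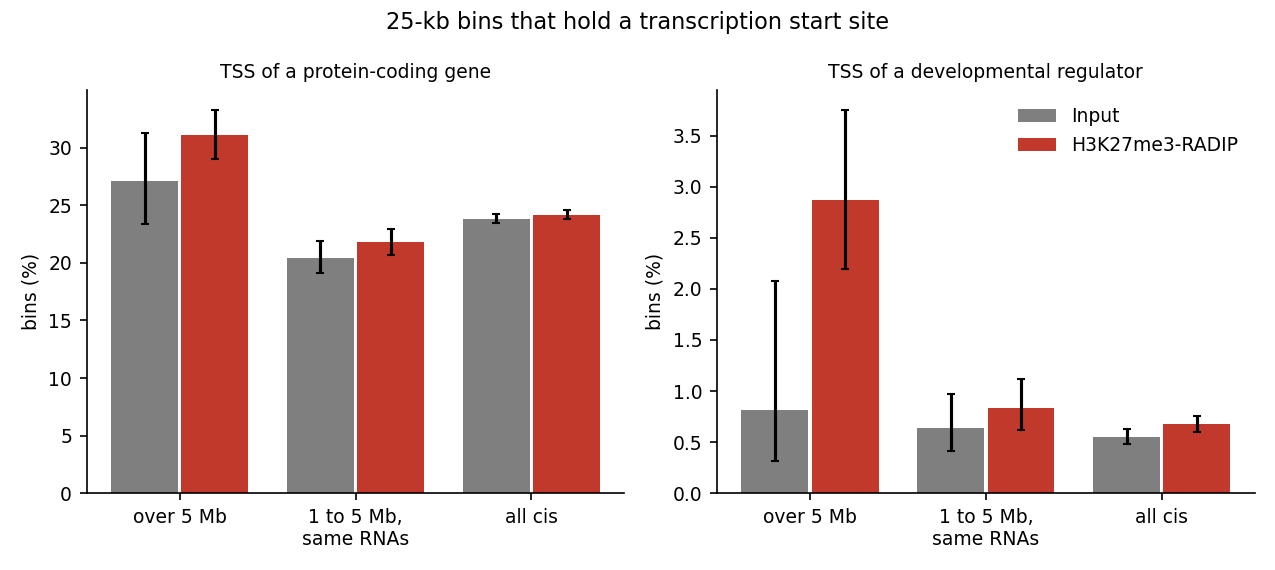
Percentage of 25-kb bins with the TSS of a protein-coding gene (left) and of a gene of the developmental list (right), for bins reached over 5 Mb, bins reached by the same RNAs at 1 to 5 Mb, and all bins with *cis* pairs. Grey is Input, red is H3K27me3-RADIP and lines are 95% Wilson intervals of counting error; the developmental share of distant bins was 2.87% in H3K27me3-RADIP and 0.816% in Input.

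The 51 bins held the TSSs of 62 developmental genes and took 597 pairs of 29 RNAs on 12 chromosomes. In Input the 4 bins took 34 pairs. Of these, 3 were reached in both tables, those of *Nkx6-2*, *Sox1* and *Foxi2*. *Pitx1*, a homeobox gene of pituitary and hindlimb, was reached in Input only, by *Jarid2* with 10 pairs at 11 Mb.

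The pairs of other distances in the same bins are given as a description. Apart from the distant pairs, the 51 bins had 1101 pairs in Input, against 2866 in H3K27me3-RADIP, a ratio of 2.60, against 1.57 in the other 1726 distant bins and 1.08 over all *cis* pairs. The 51 bins were chosen by their distant pairs in H3K27me3-RADIP, and only 3 of them had distant pairs in Input, so that this choice favours a higher number in H3K27me3-RADIP and nothing is drawn from the ratios. Input listed no pair of any distance in 15 of the bins.

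Genes of the Hox clusters lay in 9 of the 51 bins, all of the Hoxa, Hoxb or Hoxc cluster, and no Hoxd bin was reached. The list holds 39 Hox genes in 19 bins, of which these 9 are 47.4% (27.3–68.3), and 336 other genes in 331 bins, of which 42 were reached, or 12.7% (9.53–16.7). Hox bins adjoin one another, so that they are not independent, and no test was made. *Exoc4* RNA reached the *Hoxa3*, *Hoxa5*, *Hoxa6* and *Hoxa7* bin, chr6:52200000-52224999, with 16 pairs at 18.7 Mb, and *Snd1*, which encodes a Tudor domain nuclease, reached it with 9 pairs at 23.4 Mb. The neighbouring bin with *Hoxa9*, *Hoxa10* and *Hoxa11* had 9 pairs of *Exoc4* and 8 of *Snd1*, and *Exoc4* also reached the bins of *Hoxa13* (10 pairs) and *Evx1* (13). At the Hoxb cluster, *Msi2* reached the *Hoxb6*, *Hoxb7* and *Hoxb8* bin with 8 pairs and the *Hoxb3*, *Hoxb4* and *Hoxb5* bin with 10, and *Arhgap44* reached the former with 8 pairs at 31.2 Mb. At the Hoxc cluster, *Pvt1* reached the *Hoxc6*, *Hoxc8* and *Hoxc9* bin with 10 pairs at 40.8 Mb and *Ext1* with 9 pairs at 49.7 Mb. None of these combinations was listed as distant in Input. The *Hoxa6* and *Hoxb8* promoters printed above lie in 2 of these bins. The nearest distant DNA tags were 191 bp and 336 bp from their RefSeq starts, but the median distances were 7.15 kb and 3.24 kb. Where a bin held several developmental promoters, the promoter nearest the median tag was printed.

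The developmental bin with the most pairs was that of *Lmx1b*, a LIM homeobox gene of limb and midbrain. *Etl4* reached it with 18 pairs at 13.1 Mb and *Camk1d* with 11 pairs at 28.0 Mb. The nearest tag lay 4 bp from the *Lmx1b* RefSeq start, and the median distance of the distant tags was 2.15 kb. Input listed no distant pair there. *Fgfr2* reached *Nkx6-2*, a homeobox gene of the neural tube, with 26 pairs in H3K27me3-RADIP and 13 in Input at 6.5 Mb. *Mcph1* reached *Sox1*, a factor of neural progenitors, with 15 and 9 pairs at 6.29 and 6.34 Mb. *Kcnq1ot1* reached the forkhead gene *Foxi2* with 15 pairs in H3K27me3-RADIP and none in Input, where *Fgfr2* had 2 pairs.

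Apart from *Wnt10a*, described above with 3 RNAs, the other developmental targets took 1 or 2 RNAs each. *Foxd2* was reached by *Macf1* (9 pairs) and *Faf1* (7), and *Ebf3*, a factor of neuronal differentiation, by *Kcnq1ot1* (9) and *Fgfr2* (3). *Jarid2* reached *Msx2*, a homeobox gene of bone and limb, with 14 pairs at 8.66 Mb, and *Irx4* and *Bmp6* with 9 each. *Enox1* reached *Bmp1* (12) and *Gata4* (8), the latter a factor of heart and endoderm. *Magi1* reached *Vax2* (10), *Emx1* (8) and *Gata2* (8). *Wwox* reached *Irx6* (11), *Irx5* (9) and *Foxf1* (9), *Tenm4* reached *Nr2f2* (11), *Sox6* (10), *Ascl3* (9) and *Dbx1* (9), and *Msi2* reached *Dlx4* (10), *Wnt9b* (9) and *Ebf1* (8). Most of these contacts had 8 to 12 distant pairs. Counting all pairs of the bin, 8 was the fewest in any distant combination. Input listed none of the combinations of this paragraph as distant.

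Distant bins were not always bins with other signal. Of the distant bins, 20.6% in Input and 12.1% in H3K27me3-RADIP had no other pair in their table. Bins from which RNA tags arose made up 60.2% (55.8–64.4) of the distant bins in Input and 64.5% (62.2–66.7) in H3K27me3-RADIP, against 58.5% and 59.2% at 1 to 5 Mb. They were 72.1% and 71.4% of all bins with *cis* pairs and 87.0% and 78.8% of bins with *trans* pairs.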

How the data were processed

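H3K27me3-RADIP and Input tables of PGK12.1 mESCs were used, each merged by the authors from 8 labelled libraries of fewer biological replicates. Per the submitters' processing notes the tools included CASAVA 1.8.2, BWA 0.7.15-r1140 and STAR 2.5.0a with build mm10. Beside tag positions, the deposited values are p-values, not used here, and q-values, the authors' output of a modified CHiCANE model, which they limited to 0.1. The tables held 1305107 (Input) and 1415135 (H3K27me3-RADIP) significant pairs, which were counted as lines. Pairs as they stood before that step were not used here.

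Distances were taken between tag centres, and bins were the authors' 25-kb bins. Gene positions came from GENCODE M21 (the authors annotated with a later release on the same build). A TSS belonged to the bin that contains it. Developmental regulators were taken by symbol, a listed family name followed by a digit, or for Fox and Dmrt by a letter and a digit. RNAs and bins named in the text were the 12 RNAs with the most distant pairs per library, the first RNA of each chromosome, the paper's examples, the 10 bins with the most RNAs, the 10 combinations with the most pairs, the 5 longest, the 3 on either side of the limit, and the 10 developmental targets with the most pairs. Further names were chosen after seeing their values. A target that was among those found is not reported here. The members and lists were chosen with earlier results of these data known. Promoter and tag sequences were matched to RefSeq, GRCm38.p6. No RNA or bin was tested against another group, and shares have 95% Wilson intervals.

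Python 3.11.15, numpy 2.4.6, pandas 2.3.3, scipy 1.17.1, numba 0.67.0 and matplotlib 3.10.9 were used, and the counting steps were tested on simulated data. Alternatives were a q-value limit of 0.01, limits of 4 and 10 Mb, repeated positions counted 1 time, distance from the gene edge, 100-kb bins, at least 3 positions per combination, leaving out the leading RNAs, and TSSs of any gene type. Leaving out chromosome 7, taking only combinations wholly beyond the limit, counting host genes of RNAs distant in either table, and all alternatives for the developmental share, were added after the data were seen.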

Additional observations from a re-analysis of the deposited data

How the results depend on the processing

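No paired analysis was possible because the authors merged the replicates and the tables carry no replicate. The difference of the distant share kept its sign under its 12 alternatives. Values of single RNAs, regions and gene families were not recomputed under them, except where given above, and the order of *Fgfr2* and *Kcnq1ot1* in both regions of chromosome 7 turned in H3K27me3-RADIP when *cis* pairs of all distances were counted. With a q-value of at most 0.01, the difference of the distant share was 0.695 points, the distant combinations were 189 in Input and 979 in H3K27me3-RADIP, 6.33% of the latter were shared, and 2 and 49 bins had at least 2 RNAs. With a limit of 10 Mb these values were 0.559 points, 250 and 1082 combinations, 7.12%, and 1 and 61 bins. With 4 Mb they were 1.17 points, 768 combinations in Input, 14.3%, and 18 and 230 bins. Measured from the gene edge, the difference was 0.944 points with 3 and 99 shared bins. With repeated positions counted 1 time the difference was 0.963 points. Without *Wwox* the difference was 0.877 points and 8.17% of combinations were shared. Without the 10 leading RNAs of each library it was 0.305 points, with 115 and 586 combinations, 1.88% shared, 2 and 22 shared bins, protein-coding TSSs in 33.0% and 42.2% of bins, and developmental TSSs in 0% and 4.83%. Without chromosome 7 it was 0.695 points, with 302 and 1255 combinations, 2 and 79 shared bins, and protein-coding TSSs in 36.0% of H3K27me3-RADIP bins. With combinations wholly beyond 5 Mb the difference was 0.957 points, with 3 and 100 shared bins. At least 3 tag positions per combination left 3 shared bins in Input, and 100-kb bins gave 18. TSSs of genes of any type lay in 45.5% and 48.3% of bins. The developmental share in H3K27me3-RADIP stayed within its interval under 11 of 12 alternatives. Drawing H3K27me3-RADIP down to the Input size and grouping by gene identifier moved no result by more than its limit.

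The distant combinations stood near the smallest number of pairs that the authors' model listed, and how many of those found in 1 table only lay just under the limit in the other was not tested.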
